A study of Mus musculus with 10 samples.

Results

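The genes examined here encode the enzymes of the tricarboxylic acid (TCA) cycle, the carrier and enzyme complex through which pyruvate reaches it, and the enzymes that refill or drain its intermediates. There were 35 members out of 33120 genes with an exon length in the deposited tables. They were chosen by name from the biochemistry of the pathway, with earlier results of these data known. Their RNA was measured by RNA-seq in inguinal white adipose tissue (iWAT), the subcutaneous fat pad of the groin, of male C57BL/6 mice, with 1 library per mouse. The F1 generation was 3 offspring of fathers fed a control diet (F1-CD) and 3 offspring of fathers fed a low-protein diet (F1-LPD), which themselves ate CD and were taken at 5 weeks of age. The F0 generation was 2 males fed CD (F0-CD) and 2 fed LPD (F0-LPD) from weaning, taken at 10 to 12 weeks of age. All mice descended from animals kept on CD, all mothers ate CD, and the 3 offspring of a group had different mothers. No gene was modified in any group. Whole fat pads were used, so fewer cells of a type and less RNA per cell cannot be told apart.

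Pyruvate made in glycolysis enters the mitochondrial matrix through the pyruvate carrier and is turned into acetyl-CoA by the pyruvate dehydrogenase complex, or into oxaloacetate by pyruvate carboxylase. The cycle then oxidizes the acetyl group in a series of steps that pass electrons to the respiratory chain. In white fat, citrate also leaves the mitochondrion to supply acetyl-CoA for fatty acid synthesis, and pyruvate carboxylase replaces the oxaloacetate that leaves with it, whereas brown and beige fat burn the acetyl group for heat. The members are described below in the order of the pathway.

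The libraries held 6351075 to 10044546 exon reads. One library, F1-LPD replicate 1, stood apart: 48.4% of its reads on protein-coding genes lay in introns against 36.0 to 41.8% in the other 9, and 18.2% of its reads on genes came from mitochondrial rRNA against 9.29 to 15.6%. Intron shares were 36.0 to 37.5% in F1-CD and 40.7 to 48.4% in F1-LPD, and mitochondrial rRNA took 9.29 to 10.5% and 13.5 to 18.2%, so both measures of RNA or library quality separated the paternal diets. In F0 the intron shares of the diets overlapped, and mitochondrial rRNA took 9.59 to 9.85% in CD and 10.9 to 12.4% in LPD. The part of these differences in the results was not tested, and values without F1-LPD replicate 1 are given where a result rests on it. Adipoq, which encodes the fat cell hormone adiponectin, was high in every mouse, from 1166 to 2364 counts per 1000000 exon reads (CPM, TMM-normalized over the 10 libraries).

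The promoters of 5 members are printed here because these genes, both subunits of the pyruvate carrier and subunits of isocitrate dehydrogenase and succinyl-CoA ligase, carry the main differences below. Each window runs 5′ to 3′ from 250 bases before to 50 bases after a RefSeq transcription start in GRCm38.p6, and capitals mark matches to 6 short motifs searched on both strands. The Mpc1 window lies at chr17:8283537-8283836 on the plus strand, Mpc2 at chr1:165461010-165461309 (plus), Sucla2 at chr14:73552536-73552835 (plus), Suclg1 at chr6:73248255-73248554 (plus) and Idh3g at chrX:73786848-73787147 (minus). Mpc1 has a further window that is not printed.
Mpc1: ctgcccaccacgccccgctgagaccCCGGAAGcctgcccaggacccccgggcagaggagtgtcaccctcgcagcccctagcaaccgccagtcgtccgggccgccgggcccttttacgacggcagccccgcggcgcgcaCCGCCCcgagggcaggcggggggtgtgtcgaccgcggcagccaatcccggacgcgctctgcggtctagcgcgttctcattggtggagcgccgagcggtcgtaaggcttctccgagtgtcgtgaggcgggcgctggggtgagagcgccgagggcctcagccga
Mpc2: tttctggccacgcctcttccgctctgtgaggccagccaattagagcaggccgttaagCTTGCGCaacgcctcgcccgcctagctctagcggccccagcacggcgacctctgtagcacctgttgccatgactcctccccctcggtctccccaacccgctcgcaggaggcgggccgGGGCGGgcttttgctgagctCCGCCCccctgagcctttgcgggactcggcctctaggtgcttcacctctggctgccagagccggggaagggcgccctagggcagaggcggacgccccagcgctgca
Sucla2: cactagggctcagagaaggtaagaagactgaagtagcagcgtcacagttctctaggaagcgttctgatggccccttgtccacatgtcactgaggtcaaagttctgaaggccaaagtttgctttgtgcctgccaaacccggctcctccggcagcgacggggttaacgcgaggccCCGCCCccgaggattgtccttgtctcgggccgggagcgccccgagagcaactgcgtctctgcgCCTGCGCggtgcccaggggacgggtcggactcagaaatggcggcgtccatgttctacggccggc
Suclg1: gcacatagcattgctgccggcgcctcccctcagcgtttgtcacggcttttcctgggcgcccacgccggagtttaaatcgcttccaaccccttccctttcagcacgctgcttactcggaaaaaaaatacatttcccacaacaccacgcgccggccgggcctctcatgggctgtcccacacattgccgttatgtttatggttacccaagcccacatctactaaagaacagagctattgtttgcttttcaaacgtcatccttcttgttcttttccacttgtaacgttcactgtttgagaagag
Idh3g: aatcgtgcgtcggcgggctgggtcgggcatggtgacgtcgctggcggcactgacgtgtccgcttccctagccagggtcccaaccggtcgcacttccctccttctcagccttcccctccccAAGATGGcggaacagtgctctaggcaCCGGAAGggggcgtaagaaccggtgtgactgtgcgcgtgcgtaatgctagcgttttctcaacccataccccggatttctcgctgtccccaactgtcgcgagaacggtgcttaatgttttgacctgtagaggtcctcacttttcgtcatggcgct

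The carrier genes shared matches to GGGCGG, the SP1 box, which Mpc2 held at 2 places, while CCGGAAG, the core of an ETS site, was found in Mpc1 and GCGCANG, the NRF1 half-site, in Mpc2. Sucla2 held an NRF1 half-site and an SP1 box, Idh3g an ETS core and AAGATGG (the YY1 core), and Suclg1 none of the 6. Promoter sequences were matched for 31 of the 35 members. An NRF1 half-site stood in the promoters of 13 of these 31 genes (41.9%), against 18.5% of 27025 genes in the table. An SP1 box stood in 21 (67.7% against 38.2%), an ETS core in 6 (19.4% against 9.93%), the E-box CACGTG in 5 (16.1% against 8.09%), the nuclear receptor half-site AAGGTCA in 3 (9.68% against 5.38%) and the YY1 core in 1 (3.23% against 7.28%). A gene with several windows was counted once if any of them held the motif, and GGGCGG can overlap a neighbouring copy of itself. These are matches of letters, and binding was not measured.

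In the offspring of LPD fathers, both subunits of the mitochondrial pyruvate carrier stood lower, Mpc2 past the test, and most of the cycle itself differed little. Of the 34 members with enough reads to test, 1 was called lower at an adjusted p below 0.05 and 0 were called higher in edgeR's quasi-likelihood test. Among all 14049 genes tested, 1.02% were called lower and 0.142% higher. At an unadjusted p below 0.05, 4 members were lower (Mpc1, Mpc2, Dlat and Got2) and 2 higher (Idh2 and Pdp1), against 8.76% and 6.57% of all genes. The median log2 fold change of the members was -0.05 (0.01 over all genes), 23 of 34 were negative (48.6% of all genes), and every F1-LPD mouse lay below every F1-CD mouse for 5 members and above for 2. Over all genes 10.9% lay wholly below and 9.21% wholly above.

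In the males that ate the LPD themselves, subunits of enzymes from isocitrate dehydrogenase to succinyl-CoA ligase stood higher, with 2 of them past the test, and pyruvate carboxylase stood lower without passing it. Of 34 members tested, 2 were called higher, Idh3a and Sucla2, and 0 lower, where 1.18% of all 14581 genes tested were called higher and 1.32% lower. At an unadjusted p below 0.05, 6 members were higher (Idh3a, Idh3b, Idh3g, Ogdh, Sucla2 and Suclg1) and 2 lower (Pcx and Pdp2), against 7.53% and 8.2% of all genes. The median log2 fold change was 0.14 (0.00 over all genes) and 20 of 34 were positive (50.1% of all genes). The diets did not overlap for 18 members, 12 of them higher in both LPD mice and 6 lower, against 22.8% and 23.6% of all genes. From the same series, the paper reports the TCA cycle as enriched among genes higher in F0-LPD. These counts are therefore not independent of that result. The exact permutation test cannot give a p below 0.1 for 3 mice against 3 or below 0.33 for 2 against 2, so calls rest on the spread that edgeR estimates across genes.

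**Figure D1:**
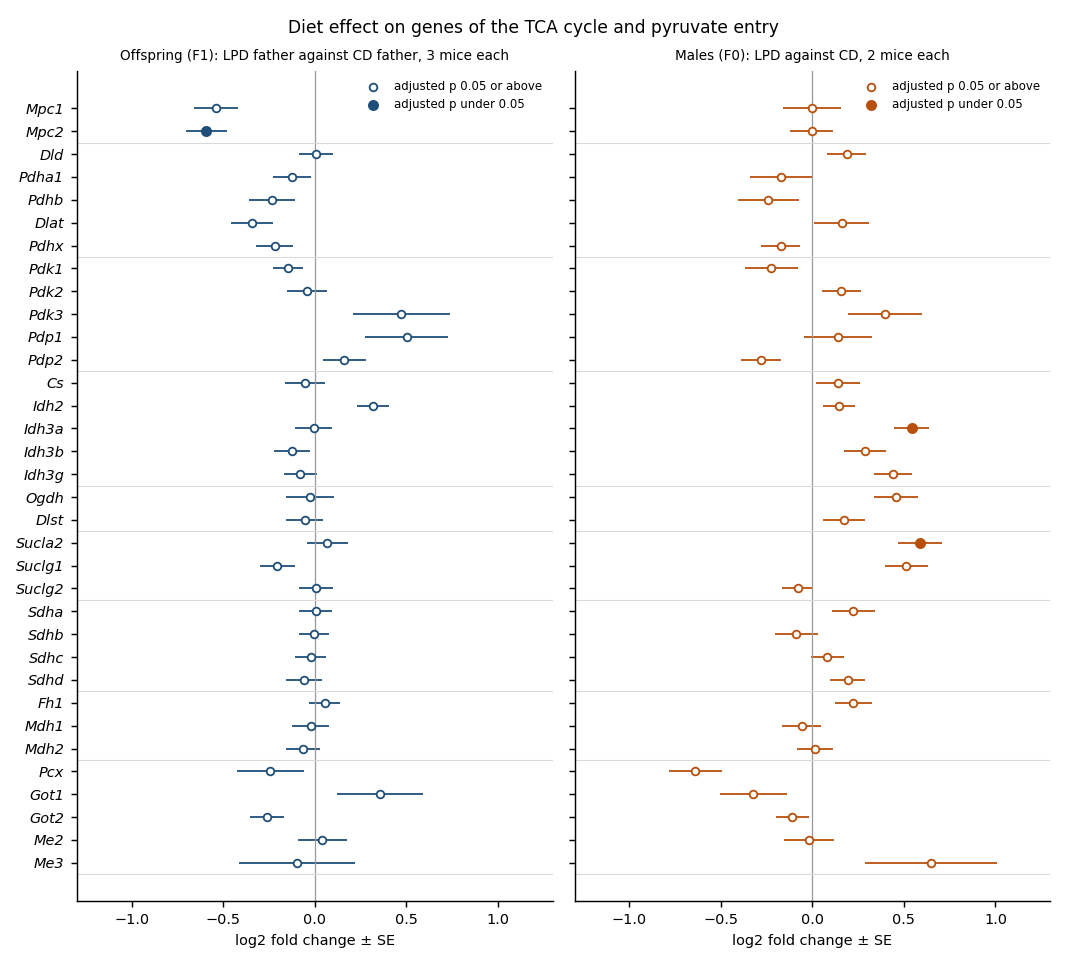
Log2 fold change (LPD against CD, horizontal axis) with its standard error for each of the 34 members tested, in pathway order from top to bottom, in F1 (left) and F0 (right). Filled points have an adjusted p below 0.05: Mpc2 in F1, and Idh3a and Sucla2 in F0.

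Of the 2 genes for pyruvate import, Mpc2 was called lower in F1 and Mpc1 was not called. Mpc1 and Mpc2 encode the proteins that pair to form the mitochondrial pyruvate carrier, the entry point of pyruvate into the matrix. Mpc2 (chr1:165460637-165481214, mm10) stood at 343, 307 and 262 CPM in F1-CD and at 209, 178 and 215 CPM in F1-LPD. All F1-LPD mice were below all F1-CD mice, and the mean fell from 304 ± 40.7 to 200.5 ± 19.9 CPM (SD, n = 3). The log2 fold change was -0.59 ± 0.11 (SE), with an adjusted p of 0.0366 by edgeR's quasi-likelihood test. This call held only when F1-CD replicate 3 was the mouse left out. Without F1-LPD replicate 1, the log2 fold change was -0.62 with an edgeR adjusted p of 0.0781, and without F1-CD replicate 1, F1-CD replicate 2, F1-LPD replicate 2 or F1-LPD replicate 3 the adjusted p was 0.154, 0.155, 0.17 or 0.0517. With a covariate for the exon share of the libraries, which differs between the paternal diets, the log2 fold change was -0.65 and the edgeR adjusted p 0.377.

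Mpc1 (chr17:8282904-8297661, mm10) stood at 558, 499 and 388 CPM in F1-CD and at 337, 317 and 335 CPM in F1-LPD. The groups again did not overlap, and the log2 fold change of -0.54 ± 0.12 had an edgeR adjusted p of 0.059, just outside the threshold. Only 18.4% of the exon reads of Mpc1 mapped uniquely (15.3 to 21.1% per mouse), so most of its reads were shared with another place in the genome. In the uniquely mapped reads alone, the log2 fold change was -0.65 with an edgeR adjusted p of 0.0267. In F0 no difference in the carrier was detected: Mpc2 stood at 116 and 103 CPM in CD and 121 and 97.5 CPM in LPD (log2 fold change -0.01 ± 0.12, adjusted p = 0.994 by edgeR), and Mpc1 at 294 and 253 against 318 and 226 CPM (0.00 ± 0.16).

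The summed CPM of 8 macrophage marker genes also separated the paternal diets, at 1133 to 1411 in F1-CD and 785 to 920 in F1-LPD. Of the 8, 5 were called lower (1.02% of all genes). The stromal progenitor list (6 genes) summed to 1025 to 1312 and 848 to 1116, with 0 called. All 6 of its log2 fold changes were negative, 5 with an unadjusted p below 0.05 (8.76% of all genes were lower at that level). For 3 of the 6, every F1-LPD mouse lay below every F1-CD mouse (10.9% of all genes). The adipocyte list (10 genes) overlapped, at 18055 to 20852 and 18665 to 23327, with 0 called. All 10 B and T cell genes had a positive log2 fold change in F1, 5 with an unadjusted edgeR p below 0.05 (6.57% of all genes). All 6 endothelial genes had a negative one, 2 of them at that level (8.76%). None of these 2 lists' genes was called in F1. The part of cell composition in the lower Mpc1 and Mpc2 was not tested.

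The pyruvate dehydrogenase complex oxidizes pyruvate to acetyl-CoA and is built from the E1 subunits Pdha1 and Pdhb, the E2 subunit Dlat, the E3 subunit Dld and the binding protein Pdhx. None of the 5 passed the test in either generation. Dlat came nearest in F1, at 455, 419 and 346 CPM in F1-CD and 327, 287 and 342 CPM in F1-LPD. These groups did not overlap, but F1-CD replicate 3 and F1-LPD replicate 3 differed by little, and the log2 fold change of -0.34 ± 0.11 had an edgeR adjusted p of 0.174. The log2 fold changes of Pdhb, Pdhx and Pdha1 in F1 were -0.23, -0.22 and -0.12, and that of Dld, which the complex shares with oxoglutarate dehydrogenase, was 0.01. In F0 the range was from -0.24 (Pdhb) to 0.19 (Dld). Uniquely mapped reads made up 74.7% of the exon reads of Pdha1 and 78.8% of those of Pdhb.

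Kinases that switch the complex off (Pdk1, Pdk2, Pdk3) and phosphatases that switch it on (Pdp1, Pdp2) did not pass the test in either generation. Pdp1 had the largest upward log2 fold change of any member in F1, 0.50 ± 0.23, at 6.60, 8.90 and 8.45 CPM in F1-CD and 9.02, 14.5 and 10.1 CPM in F1-LPD (edgeR adjusted p = 0.321). Its groups did not overlap, but they were separated by less than the spread within F1-LPD. Pdk1 was lower in all F1-LPD mice, at 134 to 146 CPM against 153 to 165 CPM in F1-CD, with a log2 fold change of -0.15. In F0, Pdp2 stood at 61.6 and 53.3 CPM in CD and 50.4 and 43.9 CPM in LPD (log2 fold change -0.28 ± 0.11, edgeR adjusted p = 0.252).

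Another kinase of the complex, Pdk4, which is no member but answers fasting and fatty acid supply in many tissues, was the related enzyme that moved most in F0. It stood at 120.5 and 79.5 CPM in CD and at 377 and 422 CPM in LPD, a log2 fold change of 2.00 ± 0.18 (edgeR adjusted p = 0.00223), and remained past the threshold when any F0 mouse was left out. In F1 the values were 227, 200.2 and 139 CPM in F1-CD and 645, 154 and 156 CPM in F1-LPD. The high value belongs to F1-LPD replicate 1, and the other F1-LPD mice lay within the range of F1-CD.

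Between citrate and oxoglutarate, 1 of the 3 subunits of the NAD-linked isocitrate dehydrogenase was called higher in F0. This enzyme, a rate-setting step of the cycle, is built from a catalytic subunit (Idh3a) and regulatory subunits (Idh3b, Idh3g). Idh3a (chr9:54586334-54604661, mm10) stood at 223 and 207 CPM in F0-CD and at 315 and 310.4 CPM in F0-LPD. The LPD mice lay close together and above both CD mice, and the mean rose from 215 ± 11.8 to 313 ± 3.20 CPM (SD, n = 2). The log2 fold change was 0.54 ± 0.10, with an edgeR adjusted p of 0.0269.

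Idh3g did not pass the test, at 219 and 199 CPM in CD and 296 and 271 CPM in LPD (0.44 ± 0.10, edgeR adjusted p = 0.0637). For Idh3b the values were 192 and 174 against 245 and 203 CPM (0.29 ± 0.12, adjusted p = 0.265). All 3 subunits were thus higher in both LPD mice, Idh3a and Idh3g by more than the spread within a diet. In F1 the same subunits gave log2 fold changes of -0.01 (Idh3a), -0.12 (Idh3b) and -0.08 (Idh3g), with overlapping groups. Citrate synthase (Cs), which opens the cycle, gave 0.14 in F0 and -0.05 in F1, and Idh2, the NADP-linked mitochondrial isocitrate dehydrogenase, gave 0.15 and 0.32. Idh2 stood at 95.9, 105 and 107 CPM in F1-CD and at 123, 122 and 138 CPM in F1-LPD, with no overlap and an edgeR adjusted p of 0.108.

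Leaving out 1 mouse ended the Idh3a call for 3 of the 4 F0 mice. The edgeR adjusted p was 0.0851 without F0-CD replicate 1, 0.202 without F0-CD replicate 2 and 0.0654 without F0-LPD replicate 2, with log2 fold changes between 0.49 and 0.60 in all 4 such fits. In limma on log2 RPKM, Idh3a gave 0.48 with an adjusted p of 0.0679.

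Oxoglutarate dehydrogenase, which turns oxoglutarate into succinyl-CoA, has the E1 subunit Ogdh, its paralog Ogdhl and the E2 subunit Dlst. Ogdh stood at 582 and 552 CPM in F0-CD and 826 and 730 CPM in F0-LPD, above both CD mice (0.46 ± 0.12, edgeR adjusted p = 0.0903). In F1 its values were 814, 762 and 845 CPM in F1-CD and 974, 668 and 721 CPM in F1-LPD. F1-LPD replicate 1 was above all F1-CD mice and the other F1-LPD mice below them. Dlst gave a log2 fold change of 0.17 in F0 and -0.06 in F1. Ogdhl had 0 to 9 exon reads per mouse and was not tested in any comparison.

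Succinyl-CoA ligase makes succinate and a nucleoside triphosphate. Its shared alpha subunit, Suclg1, pairs with an ATP-forming beta subunit, Sucla2, or a GTP-forming one, Suclg2. In F0 the ATP-forming subunit was called higher, the alpha subunit fell just outside the threshold, and the GTP-forming one differed little. Sucla2 (chr14:73525319-73596142, mm10) stood at 139 and 114 CPM in F0-CD and at 204 and 176 CPM in F0-LPD, with no overlap. The mean rose from 127 ± 17.6 to 189.8 ± 19.7 CPM (SD, n = 2), a log2 fold change of 0.59 ± 0.12 with an edgeR adjusted p of 0.0448. This call held without F0-CD replicate 1 and was lost without F0-CD replicate 2, F0-LPD replicate 1 or F0-LPD replicate 2 (edgeR adjusted p = 0.22, 0.128 and 0.0612). It was also lost in limma on log2 RPKM (0.53, adjusted p = 0.1), with exon and intron reads together (edgeR adjusted p = 0.053) and in the fit of all 4 groups (0.0746).

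Suclg1 stood at 107 and 94.7 CPM in F0-CD and at 158 and 129 CPM in F0-LPD (0.51 ± 0.12, edgeR adjusted p = 0.0587). Suclg2 stood at 68.7 and 72.8 against 65.6 and 68.2 CPM (-0.08 ± 0.09). The ratio of Sucla2 to Suclg2, taken per kilobase within each library, went from a geometric mean of 2.06 in F0-CD to 3.28 in F0-LPD. That is a log2 difference of 0.67, with the exact permutation p at its floor of 0.33. In F1 it was 4.46 and 4.64 (exact permutation p = 0.7), and in F1 the 3 subunits gave log2 fold changes of 0.07 (Sucla2), -0.20 (Suclg1) and 0.01 (Suclg2).

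**Figure D2:**
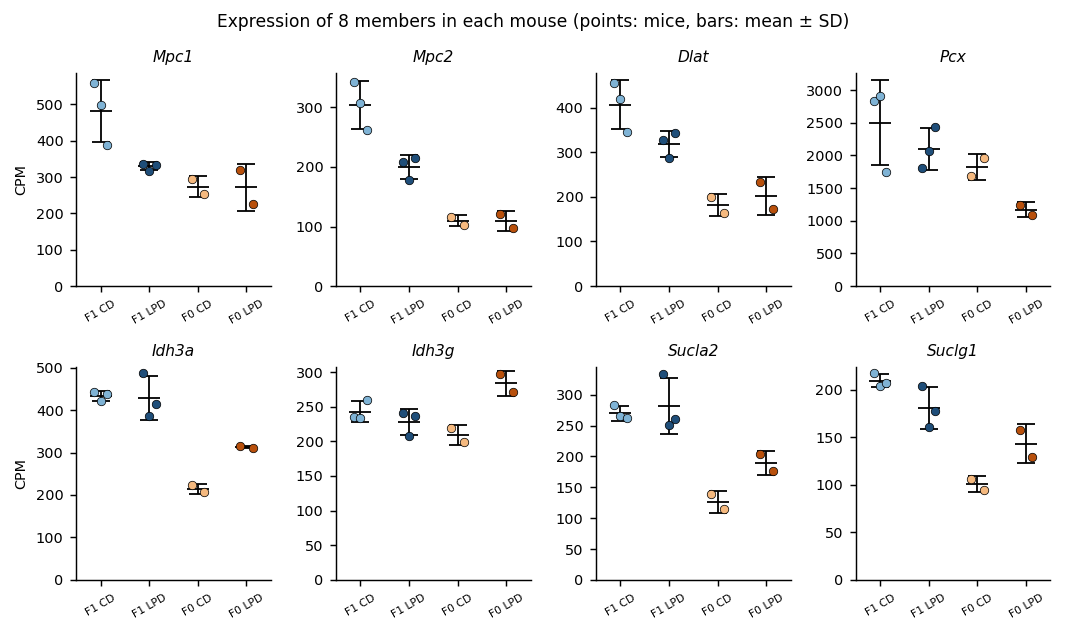
CPM (vertical axis, from 0) of 8 members in each mouse, with the mean and SD of each group as bars. Mpc1, Mpc2 and Dlat are lower in all F1-LPD mice than in all F1-CD mice, while Idh3a, Idh3g, Sucla2 and Suclg1 are higher, and Pcx lower, in both F0-LPD mice than in both F0-CD mice.

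The remaining steps of the cycle differed little. Succinate dehydrogenase, the enzyme shared with the respiratory chain (Sdha, Sdhb, Sdhc, Sdhd), gave log2 fold changes between -0.06 and 0.01 in F1 and between -0.09 and 0.22 in F0. Fumarase (Fh1) gave 0.06 in F1 and 0.22 in F0, and the malate dehydrogenases of the cytosol (Mdh1) and of the mitochondrion (Mdh2) lay between -0.06 and 0.01 in both generations. None of these 7 had an unadjusted p below 0.05 in either generation.

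Among the enzymes that refill and drain the cycle, pyruvate carboxylase (Pcx), which makes oxaloacetate from pyruvate, showed the largest downward difference in F0. Its values were 1682 and 1961 CPM in F0-CD and 1247 and 1088 CPM in F0-LPD. The diets did not overlap, the log2 fold change was -0.64 ± 0.15, and the edgeR adjusted p was 0.0589. In F1 the values were 2839, 2915 and 1747 CPM in F1-CD and 1805, 2062 and 2432 CPM in F1-LPD (-0.24 ± 0.18, adjusted p = 0.575). There F1-CD replicate 3 lay below all the F1-LPD mice.

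Aspartate aminotransferases link oxaloacetate to aspartate in the cytosol (Got1) and the mitochondrion (Got2). Got2 was lower in every F1-LPD mouse, at 39.6 to 41.9 CPM against 47.9 to 51.9 CPM (-0.26 ± 0.09, edgeR adjusted p = 0.205), and 63.0% of its reads mapped uniquely. The ratio of Got1 to Got2 was 0.245 in F1-CD and 0.362 in F1-LPD (exact permutation p = 0.1, the smallest possible, and 0.571 adjusted over 12 tests of ratios). Got1 stood at 19.1 CPM in F1-LPD replicate 1 against 9.75 and 11.2 CPM in the other F1-LPD mice, and without that mouse the log2 difference of the ratio went from 0.56 to 0.25. With uniquely mapped reads the exact permutation p was 0.2. The malic enzymes Me2 and Me3 gave log2 fold changes of 0.04 and -0.10 in F1 and of -0.02 and 0.65 in F0. Me3 rested on 19 to 71 exon reads per mouse, and its difference in F0 came from F0-LPD replicate 1 alone, at 7.45 CPM against 3.47 to 3.59 CPM in the other F0 mice.

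A difference in the diet effect between F1 and F0 was tested as an interaction term over all 10 libraries. Of 34 members, 0 were called by edgeR's quasi-likelihood test (1.25% of all 15111 genes tested), while 1 was higher and 9 lower at an unadjusted p below 0.05, against 4.91% and 7.58% of all genes. DESeq2 and the likelihood ratio test of edgeR each called 3, namely Idh3a, Idh3g and Suclg1, all with the smaller effect in F1. Over all genes these fits called 341 and 546, against 189 in the quasi-likelihood test. Suclg1 came nearest in the quasi-likelihood test, with a difference in log2 fold change (F1 minus F0) of -0.72 ± 0.16 and an edgeR adjusted p of 0.051. Idh3a gave -0.56 (adjusted p = 0.0903 by edgeR), Idh3g -0.53 (0.0926) and Mpc2 -0.60 (0.164). Without F1-LPD replicate 1, 3 members were called, Idh3a, Ogdh and Suclg1, and 263 genes in all. Age and generation coincide, so they cannot be told apart here.

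Reads in introns come largely from unspliced RNA and give a second reading of the same genes. For Idh3a, intron reads stood at 23.0 and 26.4 CPM of intron reads in F0-CD and 39.0 and 46.8 in F0-LPD. This log2 fold change of 0.80 ± 0.14 (edgeR adjusted p = 0.0133) made Idh3a the member called higher on both readouts. Intron reads of Pdhx, the binding protein of the pyruvate dehydrogenase complex, fell from 64.7 and 61.4 to 45.4 and 47.3 CPM (-0.44 ± 0.10, edgeR adjusted p = 0.0435), while its exon reads gave -0.17. Of 33 members tested on introns in F0, 1 was thus called higher and 1 lower, against 1.36% and 2.12% of all 14334 genes tested. The intron call of Idh3a was lost without F0-LPD replicate 2 (0.67, edgeR adjusted p = 0.0716), and that of Pdhx without F0-CD replicate 1, F0-LPD replicate 1 or F0-LPD replicate 2 (adjusted p = 0.057, 0.23 and 0.165).

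Sucla2 gave 0.42 on introns (edgeR adjusted p = 0.0665) and Pcx -0.31 (0.054), each with the diets apart and in the direction of the exon reads. Idh3g went the other way, with -0.24 on introns against 0.44 on exons, from 48 to 67 intron reads per mouse. Suclg1 and Ogdh gave 0.12 and 0.13 on introns. In F1, 0 of 33 members were called on introns by edgeR (0.424% of all 13456 genes tested), and 3 had an unadjusted p below 0.05: Mpc2 lower (8.17% of all genes), Pdk1 and Sdha higher (5.63%). Intron reads of Mpc2 stood at 52.5, 49.7 and 44.3 CPM in F1-CD and 36.5, 37.5 and 37.5 CPM in F1-LPD (-0.40 ± 0.11, edgeR adjusted p = 0.138), all F1-LPD mice below all F1-CD mice. For Mpc1 the intron groups overlapped (-0.09 ± 0.12).

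**Figure D3:**
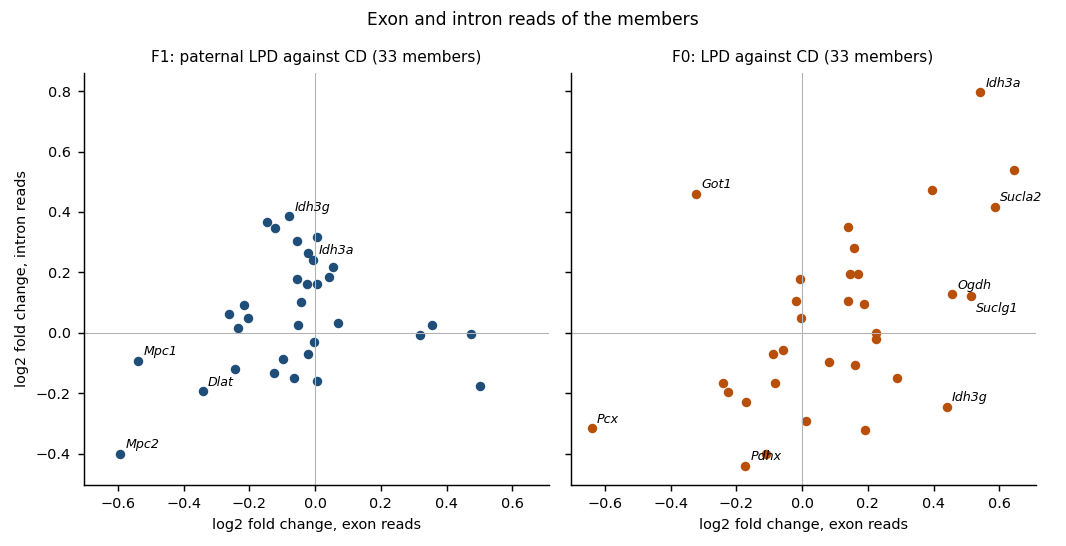
Log2 fold change (LPD against CD) from exon reads (horizontal axis) against that from intron reads (vertical axis) for the 33 members tested on both, in F1 (left) and F0 (right). Mpc2 in F1 and Pcx in F0 lie at lower left, Idh3a and Sucla2 in F0 at upper right, and Idh3g in F0 is positive on exons and negative on introns.

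The members span a wide range of levels. Per kilobase of exon, Pcx was the highest, with a mean of 463 CPM per kilobase over the 10 mice (range 255 to 682), above 99.7% of the genes with an exon length and above Pdhb in all 10 mice. Pdhb (236), Cs (229), Pdha1 (179) and Mpc1 (169) followed. Pdhb was above Cs in 7 mice and Mpc1 above Mdh1 in 5, so these neighbours were not separated beyond their spread. The Idh3 subunits lay close to each other at 88.8 (Idh3g), 75.3 (Idh3b) and 71.8 CPM per kilobase (Idh3a).

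Paralogs and partners of one enzyme were less even. Mpc1 stood at 169 and Mpc2 at 51.3 CPM per kilobase, with the reservation on shared reads given above. Sucla2 stood at 57.4 and Suclg2 at 15.1, Pdk2 at 37.0, Pdk1 at 17.6 and Pdk3 at 2.76, and Got2 at 16.4 and Got1 at 4.87. Lowest were Pdp1 (2.60), Me3 (0.285) and Ogdhl (0.132).

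**Figure D4:**
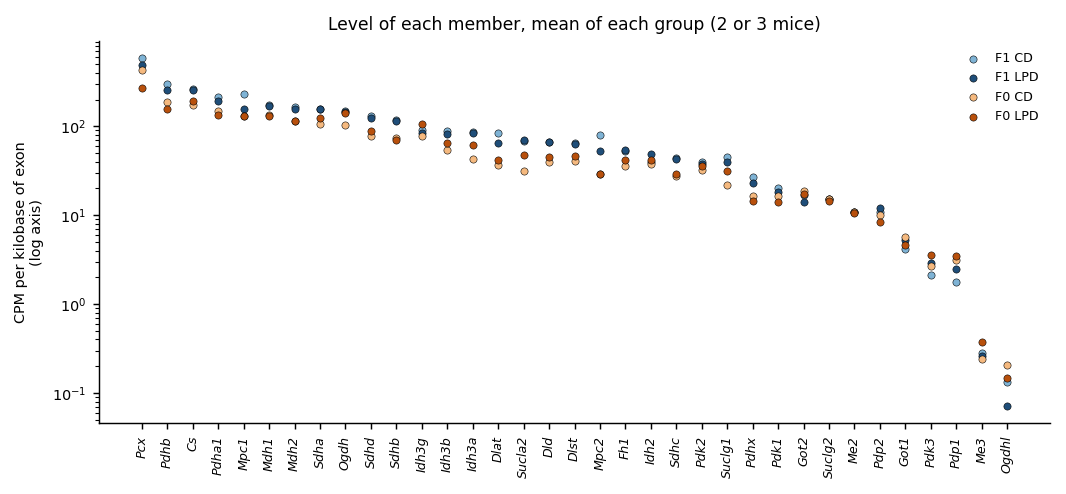
Mean CPM per kilobase of exon (vertical log axis) of each of the 35 members in the 4 groups, ordered by the mean over the 10 mice. Levels run from Pcx at 463 down to Ogdhl at 0.132, and for most members the F1 points lie above the F0 points.

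The 5-week-old F1-CD mice had more RNA of the pathway than the older F0-CD mice. This is a description, since age, generation and the set of libraries coincide. Of 34 members, 23 were higher in every F1-CD mouse than in every F0-CD mouse and 3 were lower (Pdp1, Got1 and Got2), against 25.2% and 24.7% of all 15111 genes tested. The median ratio of F1-CD to F0-CD was 1.48 for the members and 1.01 for all genes. The largest ratios were those of Mpc2 (2.77), Dlat (2.24), Sucla2 (2.13), Suclg1 (2.08) and Idh3a (2.02). Idh3a averaged 313 CPM in F0-LPD against 433 in F1-CD and Sucla2 189.8 against 270.2, whereas Idh3g averaged 284 against 243.

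Genes around the cycle were examined from lists of related functions. Over all genes, 0.142% were called higher and 1.02% lower in F1, and 1.18% and 1.32% in F0. Of 13 other enzymes of the cycle, of pyruvate or of related metabolites, 1 was called higher in F1 (Adhfe1, 0.44, edgeR adjusted p = 0.0276) and 1 in F0 (Pdk4, above). None was called lower. At an unadjusted p below 0.05, 2 were higher and 3 lower in F1, against 6.57% and 8.76% of all genes. In F0, 3 were higher and 3 lower, against 7.53% and 8.2%. Acly, which the paper reports as lower in F1 by RNA-seq (with CLC Genomics Workbench) and qRT-PCR, was not called by edgeR's test here. The 2 tests differ, so the missing call is no contradiction of the paper. In F1-CD, Acly had 53305, 65834 and 31429 exon reads, in libraries of 7680937, 8971136 and 7351881. In F1-LPD it had 15885, 26544 and 28937, in libraries of 6351075, 7087511 and 6445208. Of 9 factors for lipoylation, flavin and assembly, 0 were called in either generation by edgeR, and 0 had an unadjusted p below 0.05.

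Of 7 mitochondrial carriers tested, most of them for metabolites of the cycle, 1 was called lower in F1, and in F0 1 was called higher and 1 lower. Slc25a1, the citrate carrier that feeds fatty acid synthesis, stood at 1370.0, 1359 and 835 CPM in F1-CD and 457, 559 and 608 CPM in F1-LPD (-1.12 ± 0.18, edgeR adjusted p = 0.0178). It gave -0.61 in F0 (adjusted p = 0.154), where the diets also did not overlap. In F0, Slc25a10, the dicarboxylate carrier, fell by 0.93 on the log2 scale (edgeR adjusted p = 0.011) from 372 and 372 to 216 and 175 CPM. Slc25a20, which carries acylcarnitines and no metabolite of the cycle, rose by 1.06 (edgeR adjusted p = 0.00627) from 52.8 and 40.7 to 97.6 and 96.9 CPM. The calls of Slc25a1 and Adhfe1 in F1 were each lost without F1-CD replicate 1, F1-CD replicate 2, F1-LPD replicate 1 or F1-LPD replicate 2, with edgeR adjusted p values of 0.0653 to 0.161, while the log2 fold change of Slc25a1 lay between -1.32 and -1.01 and that of Adhfe1 between 0.42 and 0.47.

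Of 11 genes for the entry of amino acids and ketone bodies, 0 were called in F1 by edgeR (1 higher and 0 lower at an unadjusted p below 0.05) and 3 in F0. The alanine aminotransferases, which interconvert alanine and pyruvate, were both lower in F0. Gpt gave -0.81 (edgeR adjusted p = 0.00783) and Gpt2, the mitochondrial form, -1.14 (0.00373), from 212 and 259 to 108 and 106 CPM. Abat, which degrades GABA toward succinate, was higher by 1.34 (adjusted p = 0.0313), a call lost without F0-CD replicate 1, F0-CD replicate 2 or F0-LPD replicate 2 (edgeR adjusted p = 0.0906, 0.0671 and 0.0544).

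Among transcription factors and coactivators of mitochondrial genes, 1 of 12 tested was called in F1 and 1 of 13 in F0. Ppargc1a, a coactivator of mitochondrial genes, was higher in F1-LPD, at 46.6, 26.9 and 32.8 CPM against 18.9, 16.2 and 16.5 CPM (1.05 ± 0.18, edgeR adjusted p = 0.026). Without F1-LPD replicate 1, the log2 fold change was 0.81 with an adjusted p of 0.0541, and the call was also lost without F1-CD replicate 1 (0.0945) or F1-CD replicate 2 (0.125). With a covariate for the exon share the log2 fold change of Ppargc1a was 0.46 (edgeR adjusted p = 0.594), and limma on log2 RPKM gave 0.81 (adjusted p = 0.0617). Ppara, the fatty acid receptor, was higher in F0-LPD (1.12 ± 0.19, edgeR adjusted p = 0.0249), at 43.3 and 33.6 CPM against 14.1 and 21.2 CPM, and the call was lost without F0-CD replicate 1 (adjusted p = 0.0528) or F0-LPD replicate 1 (0.0704). In F0, Ppargc1a was lower in both LPD mice without being called, with a log2 fold change of -0.40. Its exon reads there were 176 and 231 in CD and 127 and 165 in LPD. Ppargc1b and Esrra were not called, with log2 fold changes of 0.22 and -0.08 in F1 and of -0.04 and -0.09 in F0.

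**Figure D5:**
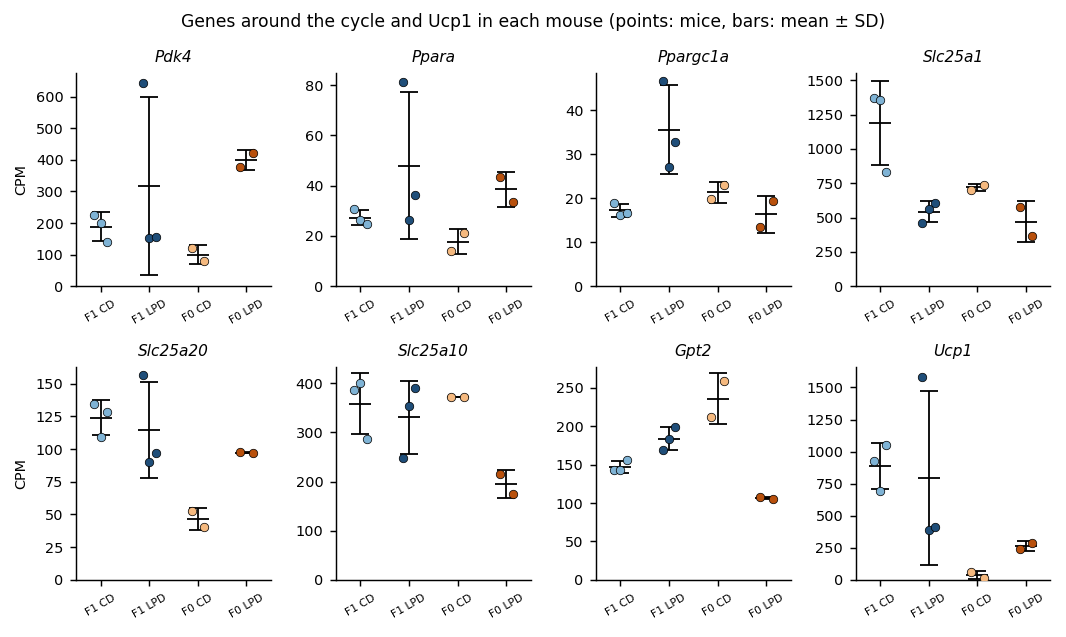
CPM (vertical axis, from 0) of 7 genes around the cycle and of the beige fat marker Ucp1 in each mouse, with the mean and SD of each group as bars. F1-LPD replicate 1 is the high point of Pdk4 (645), Ppara (81.3), Ppargc1a (46.6) and Ucp1 (1581).

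In F0, where Idh3a and Sucla2 were higher in LPD, most markers of beige fat were also higher and markers of skeletal muscle were lower. Of 11 brown or beige adipocyte genes tested, 6 were called higher (1.18% of all genes). Both LPD mice were higher for 10 of the 11 and lower for 1, Ppargc1a, against 22.8% and 23.6% of all genes. The list summed to 610 and 445 CPM in F0-CD and 1203 and 1105 CPM in F0-LPD. Ucp1, the uncoupling protein of heat-producing fat cells, stood at 58.5 and 13.5 CPM in CD and 238 and 290 CPM in LPD (2.89 ± 0.47, edgeR adjusted p = 0.0196), and Zic1 was at 0 in at least 1 library. Of 18 skeletal muscle genes, 10 were called lower (1.32% of all genes) and all 18 were lower in both LPD mice (23.6%). They summed to 4085 and 6375 CPM in CD and 2631 and 1917 CPM in LPD. Acta1, the actin of skeletal muscle, fell by 1.04 on the log2 scale (edgeR adjusted p = 0.0378), and Myh7, the slow-fibre myosin, went from 17.5 and 22.4 to 0.525 and 0.234 CPM. The call of Ucp1 was lost without F0-LPD replicate 2 (edgeR adjusted p = 0.0554), and that of Acta1 without F0-CD replicate 2 (0.0858) or F0-LPD replicate 2 (0.166). The part of beige or muscle cells in the higher Idh3a and Sucla2 was not tested.

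In F1 the beige list overlapped between paternal diets, at 1731 to 2314 CPM in F1-CD and 2919, 1215 and 1343 CPM in F1-LPD. F1-LPD replicate 1, which had the highest sum, also had the highest level of Idh3a (487), Sucla2 (334) and Ogdh (974 CPM) among the F1 mice, whereas Mpc2 in that mouse (209 CPM) lay between the other F1-LPD mice.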

How the data were processed

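RNA from iWAT was depleted of rRNA, made into directional libraries and sequenced as read pairs of 36 bases. Reads were aligned by the authors with CLC Genomics Workbench (mm10), and they deposited, per gene, counts of reads on exons and introns, total and uniquely mapped. Whether CLC counted by strand is not given in the sources used here. The authors' RPKM values are exon reads per kilobase and per 1000000 reads and served an alternative only, with 0.1 added before taking log2. The deposited TPM values were not used.

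Total exon reads were fitted within each generation in R 4.3.3 with edgeR 4.0.16 (filterByExpr, TMM, two-sided quasi-likelihood F test, Benjamini-Hochberg adjustment over all genes tested, threshold 0.05), intron reads likewise, and the interaction over all 10 libraries. The SE is the log2 fold change divided by the square root of F. Printed CPM values are scaled by TMM over the 10 libraries. Ratios of paralogs were compared by exact two-sided permutation tests, with 12 p-values adjusted together. With 2 or 3 mice per group, intervals rest on few animals. A level of 3 reads, the floor for counting error, is 0.299 to 0.472 CPM.

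All 35 members are accounted for. Values per mouse are given for members past the threshold, their partners, and the highest and lowest per kilobase. From the related lists, called genes, Pdk4, Ppargc1a, Ppargc1b, Esrra and Ppara are named. Other members with values per mouse were added for an unadjusted p below 0.05 or for their size after the values were seen. The members and lists were chosen with earlier results of these data known. Of the other marker lists, B and T cell genes (10) were called higher once in F0 (Ms4a1), endothelial genes (6) 0 times, and of 6 epithelial genes Krt18 and Krt8 were called lower in F1. In F0, Cd163 of the macrophage list and Dcn of the stromal list were called lower, and the adipocyte list had 0 called. Promoters are those of RefSeq (GRCm38.p6), and those of Idh3a, Sdhc, Pdp1 and Me2 were not used here.

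Alternative fits used the likelihood ratio test, DESeq2 1.42.0, edgeR with DESeq2's size factors, all genes without a filter, genes with at least 10 reads in every library, a single fit of the 4 groups, a replicate block, exon plus intron reads, uniquely mapped exon reads, limma-trend (limma 3.58.1) on log2 RPKM, a covariate for the exon share, and 1 mouse fewer. The fitting steps were tested on simulated data. Ratios from unique reads, and with a mouse left out, were added after seeing the data. The ratio of Ogdhl to Ogdh was not computed because 1 library had 0 reads of Ogdhl.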

Additional observations from a re-analysis of the deposited data

Results flagged for a closer look

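No member passed the test of a difference between generations, and groups of 2 or 3 mice are too small to look for outlying samples. Of the related genes and markers whose values are given above, 3 had a diet effect that differed between F1 and F0 by edgeR's interaction test. Among all 15111 genes tested, 1.25% were called. For Gpt2 the log2 fold change was higher in F1 by 1.47 (adjusted p = 0.00266), and it was past the threshold whichever mouse was left out. For Ppargc1a, with log2 fold changes of 1.05 in F1 and -0.40 in F0, the difference was 1.44 (adjusted p = 0.041). It was 1.20 (adjusted p = 0.0326) without F1-LPD replicate 1. It was lost without either F0-CD mouse, either F0-LPD mouse, F1-CD replicates 1 or 2, or F1-LPD replicate 3, with adjusted p values up to 0.222. It was also lost with exon and intron reads together (0.30, adjusted p = 0.545), with a covariate for exon share (0.93, adjusted p = 0.27) and in limma on log2 RPKM (1.25, adjusted p = 0.0912). For Myh7, which had at most 1.07 CPM in any F1 mouse, the fitted difference of 7.10 (adjusted p = 0.0287) depends on counts at or near 0 and gives no fold. The marker lists held 6 other genes called in the interaction test. Cfd (10 adipocyte genes tested) and Myh2 (18 skeletal muscle genes tested) had a higher log2 fold change in F1 than in F0. Cox7a1, Cox8b and Otop1 (11 brown or beige genes tested) and Adgre1 (8 macrophage genes tested) had a lower one.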

How the results depend on the processing

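In F1, where 1 member was called, the likelihood ratio test, DESeq2 and uniquely mapped reads each called 2 (Mpc1 and Mpc2), no filter on low counts called 3, and the exon share as a covariate called 0. Leaving out one mouse gave 0 to 3. In F0, where 2 were called, the likelihood ratio test, DESeq2, no filter and the exon share covariate each called 6, namely Idh3a, Idh3g, Ogdh, Sucla2 and Suclg1 higher and Pcx lower, 1 fit of all 4 groups called 1, limma on RPKM called 0, and leaving out one mouse gave 0 to 3. For the interaction, where 0 were called, the likelihood ratio test and DESeq2 called 3, no filter 7, at least 10 reads 1, reads on exons and introns 2, unique reads 1, limma 2, the exon share covariate 4, and leaving out one mouse 0 to 3. On introns, F1 stayed at 0 in the alternatives run, and F0, with 2 called, gave 4 without a filter and 0 to 3 with one mouse left out. The log2 fold changes of Mpc2 in F1, Idh3a in F0 and Sucla2 in F0 kept their sign in all these fits, between -0.75 and -0.50, 0.48 and 0.60, and 0.45 and 0.73. Limma on RPKM moved the median log2 fold change of all genes to -0.15 in F1 and -0.05 in F0, and called 2 genes higher and 115 lower in F1 (edgeR 20 and 144), and 30 and 52 in F0 (edgeR 172 and 192). Calls over all genes also changed with the fit. In F0 the likelihood ratio test called 983 genes, DESeq2 344, no filter 1343 and the exon share covariate 1045 (main fit 364). The same 4 fits called 582, 343, 798 and 11 in F1 (main fit 164). For the interaction they called 546, 341, 890 and 158 (main fit 189).

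Blocking on the replicate number, 2 members were called in F1 (Mpc1 and Mpc2), 7 in F0, 1 in the interaction, 4 on introns in F0 and 0 on introns in F1. Over all genes, the block called 260, 1391, 267, 803 and 100 in that order, against 164, 364, 189, 499 and 57 without it. Mice with the same number share only that number: their deviations correlated by 0.04, 0.00 and 0.01 in F1 and by 0.05 in F0. Of the 6 F1 mice, not all correlated best with their own number.

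Log2 differences between diets in 4 ratios, all small, changed sign when one mouse was left out: Sucla2 to Suclg2 in F1 (-0.043 to 0.16), Pdk1 to Pdk2 in F1 (-0.20 to 0.0012), Pdk2 to Pdp1 in F0 (-0.35 to 0.32) and Mdh1 to Mdh2 in F1 (-0.0079 to 0.15). The other 8 comparisons of ratios kept their direction. Where not stated otherwise, the cause of a change was not tested.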
